A study of Mus musculus with 12 samples.

Results

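The effect of the MYC mutation T58A on gene expression was compared between 2 kinds of mouse B cell culture, and all 12 of the 12 libraries of the series entered the comparison. In each culture a T58A library was set against the wild-type (WT) library of the same pair as log2((T58A + 1)/(WT + 1)), and the mean of the 3 pair ratios in the IL7 cultures minus the mean of the 3 pair ratios in the LPS cultures is called the difference here. A negative difference means that T58A lowered a gene more, or raised it less, with IL7 than with LPS. The 4 groups were marrow B cells of WT mice and of T58A mice, described in the design as immature and grown with IL7, and splenic B cells of WT mice and of T58A mice, described as mature and grown with LPS. Each group had 3 libraries, and all 12 cultures were kept in RPMI medium with serum and harvested at 48 h. The design speaks of WT and T58A littermates; strain, age, allele copy number and the animal behind each library are not given in the sources used here. Because nothing names separate animals for each library, p-values measure the spread between these pairs, part of which may be technical. Tissue, cell maturity and stimulus all change together between the cultures and cannot be told apart.

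MYC is a transcription factor that, paired with MAX, raises genes of ribosome production, nucleotide synthesis and metabolism. T58A replaces a threonine by alanine whose phosphorylation marks MYC for ubiquitin-dependent degradation. Interleukin 7 (IL7) keeps early B cells of the marrow growing. Bacterial lipopolysaccharide (LPS) acts through a Toll-like receptor and NF-kB to drive mature B cells into division and, in part, into antibody-secreting plasmablasts, which enlarge their endoplasmic reticulum.

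Values are the deposited reads per gene divided by 1 size factor per library, called normalised reads. The tables of the 2 cultures were scaled separately, so levels are compared within a culture and only ratios between cultures. Depth was 8486753 to 10201113 assigned reads per IL7 library and 5110746 to 9332410 per LPS library, and a gene with no read could have stood at up to 3 reads, equal to 2.15 to 4.12 normalised reads (counting error only). Xist and Y-linked reads showed that WT libraries 1 and 2 of each culture were female and that WT library 3 and every T58A library were male, so in pairs 1 and 2 sex and genotype cannot be told apart. IL7 WT library 2 also held 185 Y-linked reads against 2189 to 2385 in the male IL7 libraries. The B cell label held in both cultures: the 10 B lineage markers summed to 44704 to 75142 normalised reads in IL7 WT, 38272 to 48408 in IL7 T58A, 58280 to 64282 in LPS WT and 60327 to 61087 in LPS T58A. The sum of 16 myeloid markers was 629 to 1932 in IL7 WT and 452 to 915 in IL7 T58A. In the LPS table a pair of T58A columns has the same header; they are paired here with WT 1 and WT 2 in column order, an assignment under which the authors' own LPS p-values could be recomputed for 98.9% of genes.

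Of 10767 genes that passed the expression filter in both cultures, 441 had a called difference of the T58A effect, meaning an adjusted p under 0.05 (limma with the pair as a block, Benjamini-Hochberg). That is 4.1% of the genes tested. The difference was negative for 344 of them and positive for 97. An effect of T58A was called for 1288 genes in the IL7 cultures (12%), 508 higher (4.72%) and 780 lower (7.24%), and for 213 genes in the LPS cultures (1.98%), 108 higher (1%) and 105 lower (0.975%). Across the 10767 genes the effects in the 2 cultures had a Pearson correlation of 0.28 and a Spearman correlation of 0.23, given as a description since genes are not independent. Of the 1288 genes called with IL7, 815 (63.3%) had a mean effect of the same sign with LPS.

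Genes were sorted into classes from these calls. Opposite genes, 225 in all (2.09% of the genes tested), had a called difference with all 3 IL7 ratios on one side of 0 and all 3 LPS ratios on the other. IL7-specific genes, 182 (1.69%), had a called difference, an effect called with IL7 but not with LPS, and were not opposite; 156 of them were lower in T58A and 26 higher. LPS-specific genes, 29 (0.269%), were defined likewise, 16 lower and 13 higher. Shared genes, 39 (0.362%), had an effect called in both cultures in the same direction, 25 higher and 14 lower; they are 3.03% of the genes called with IL7 and 18.3% of those called with LPS. No shared gene had a called difference by limma, edgeR or DESeq2 (1 at an unadjusted p under 0.05), which their definition favours, and 5 genes with a called difference fell into no class. Whatever the test, the 3 IL7 ratios did not overlap the 3 LPS ratios for 2617 of all genes tested (24.3%), with IL7 above for 1132 (10.5%) and below for 1485 (13.8%).

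**Figure D1:**
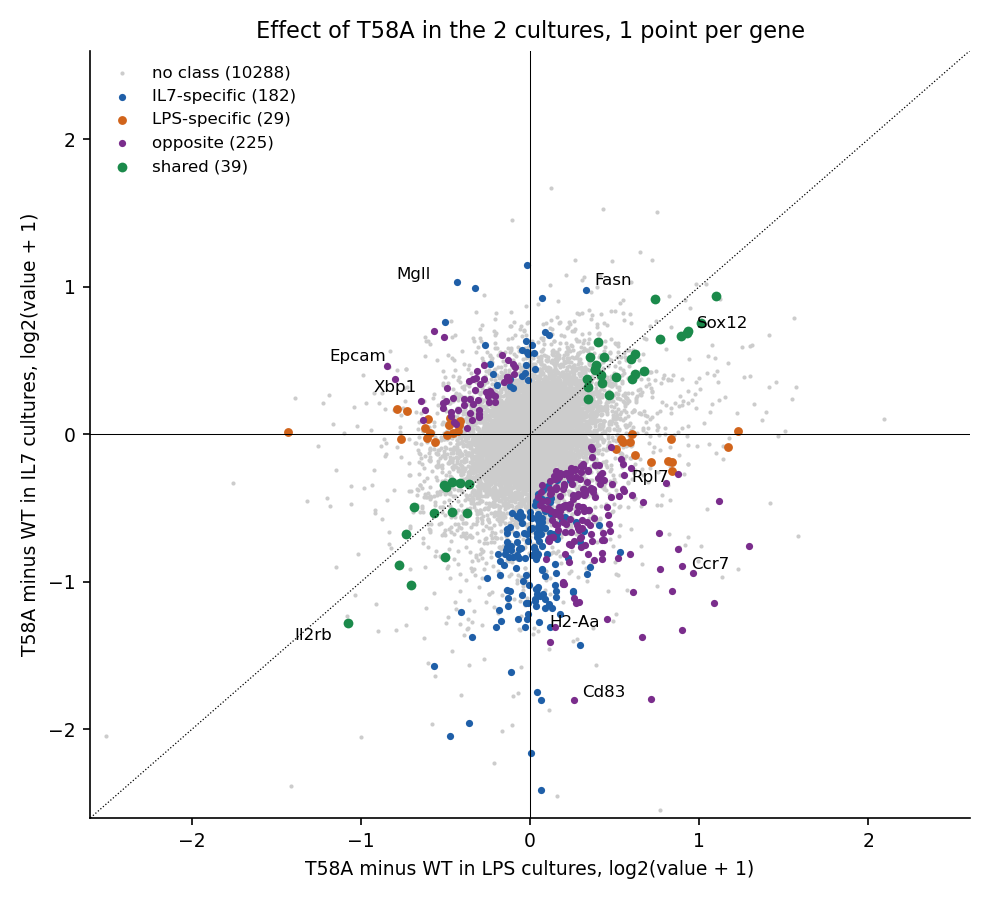
Each point is 1 gene, with the T58A effect in LPS cultures on the x axis and in IL7 cultures on the y axis, both as mean log2((T58A + 1)/(WT + 1)) over 3 pairs; the dotted line marks equal effects and 4 sex-linked genes are not drawn. The 225 opposite genes lie to the upper left and the lower right of the origin, most of them to the lower right, the 182 IL7-specific genes lie near the vertical axis, most of them below 0, and the 39 shared genes lie near the dotted line.

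Most opposite genes fell short of the test in 1 culture or in both. Of the 441 genes with a called difference, 46 had no effect called in either culture, and all but 5 of those were opposite. Of the 225, 172 were lower in T58A with IL7 and higher with LPS, and 53 the reverse. The effect was called with IL7 in 155, with LPS in 35, and in both cultures in only 6 genes: Ccr7, Gpr132, Irf2bp2, Cyb561a3, Rpl6 and the unnamed transcript 4930426D05Rik. All 6 were lower in T58A with IL7 and higher with LPS.

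Ccr7, the chemokine receptor that guides lymphocytes into lymph nodes, had the largest difference of these 6 (chromosome 11, 99144199 to 99155077, GRCm38). In IL7 cultures it measured 626, 464 and 279 normalised reads in WT libraries 1, 2 and 3 and 304, 249 and 165 in the T58A libraries of the same pairs. In LPS cultures it measured 1096, 1913 and 882 in WT and 2441, 3932 and 1254 in T58A. Every T58A library was below its WT partner with IL7 and above it with LPS, although in both cultures the groups overlap unless read by pair. The fitted change was 1.86-fold lower with IL7 (log2 -0.89 ± 0.12 SE, n = 3 pairs, limma adjusted p = 0.00134) and 1.87-fold higher with LPS (0.90 ± 0.12 SE, adjusted p = 0.0159). The difference was -1.79 ± 0.16 (SE, 95% interval -2.16 to -1.43, limma adjusted p = 0.00208).

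Gpr132, a G protein-coupled receptor of lymphocytes, measured 512, 409 and 377 in IL7 WT and 395, 348 and 266 in IL7 T58A (chromosome 12, 112850873 to 112868416). With LPS it measured 508, 813 and 614 in WT and 818, 1242 and 784 in T58A. Its pair ratios were thus all negative with IL7, at -0.37, -0.23 and -0.50, and all positive with LPS, at 0.69, 0.61 and 0.35, and the difference was -0.92 ± 0.13 (SE, limma adjusted p = 0.00786). Irf2bp2, a transcriptional corepressor, had a difference of -0.94 ± 0.15 (SE, limma adjusted p = 0.0116), and Cyb561a3, a lysosomal cytochrome of the b561 family, one of -0.70 ± 0.12 (SE, adjusted p = 0.015).

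Among the opposite genes with the largest differences, Cd83, a surface marker of activated B cells and dendritic cells (chromosome 13, 43785112 to 43803133) and a target of NF-kB, measured 507, 448 and 129.9 in IL7 WT and 132, 84.7 and 60.9 in IL7 T58A, against 6055, 5089.9 and 4800.4 and 8553, 6165 and 4807 with LPS. The T58A libraries were lower in every IL7 pair, with log2 ratios of -1.93, -2.39 and -1.08, while the LPS ratios were small, at 0.50, 0.28 and 0.00. The difference was -2.06 ± 0.27 (SE, limma adjusted p = 0.00515), and the LPS effect alone did not pass (0.26, adjusted p = 0.494). Steap4, a metalloreductase, had ratios of -1.10, -1.58 and -1.46 with IL7 and 1.02, 0.35 and 0.61 with LPS, and a difference of -2.04 ± 0.25 (SE, adjusted p = 0.0042). Pvrl1 (-2.23), the T cell and B-1 cell glycoprotein Cd5 (-2.06), Gdpd3 (-1.90) and the nuclease Dnase1l3 (-1.90) were also among the largest, as was the ribosomal gene Rps16 described further on. Pvrl1, Cd5 and Gdpd3 had no effect called in either culture alone. Cd5 in LPS WT measured only 11, 6.05 and 1.97 normalised reads, the last of them worth under 3 reads.

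Opposite genes that were higher with IL7 and lower with LPS were led by Epcam, an epithelial adhesion molecule also found on early lymphoid cells (chromosome 17, 87635979 to 87651127). It measured 129.9, 86.1 and 229 in IL7 WT and 179.7, 154 and 245 in IL7 T58A, and 276, 201 and 332 in LPS WT and 166, 125 and 151 in LPS T58A. The WT and T58A groups overlapped with IL7 and did not overlap with LPS, and the difference was 1.31 ± 0.22 (SE, limma adjusted p = 0.0123). Pdzd2, a protein with PDZ domains, measured 41.2, 39.8 and 43.2 in LPS WT and 21.6, 22.2 and 26.4 in LPS T58A, with no overlap, and had IL7 ratios of 0.64, 0.26 and 0.23. Its difference of 1.18 ± 0.18 (SE, adjusted p = 0.0103) stayed called when any 1 of the 6 pairs was left out, as it did for only 2 of the 97 genes with a positive difference. Coro2b, of the coronin actin-binding family (1.27), the ubiquitin ligases Znrf3 (1.17) and Ube4a (0.79), and Smim13 (0.75) had the same pattern.

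**Figure D2:**
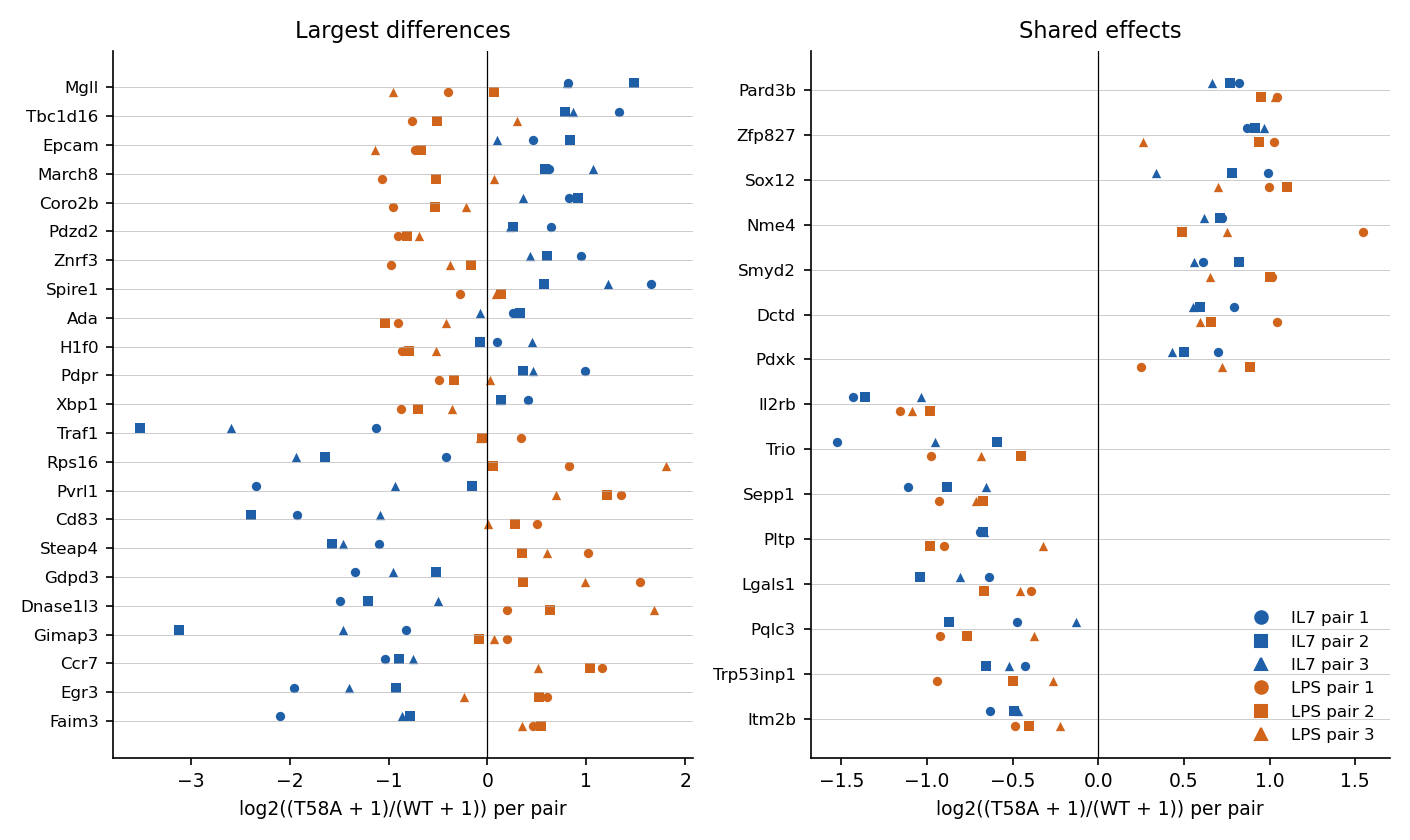
Each row is 1 gene and each symbol the log2((T58A + 1)/(WT + 1)) of 1 pair, blue for IL7 and orange for LPS, with the shape giving the pair number. On the left are the 12 largest positive and 11 of the 12 largest negative called differences, in which blue and orange do not overlap as the choice of genes required; on the right are 15 shared genes, in which all 6 symbols lie on one side of 0.

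The genes of MHC class II antigen presentation, by which B cells display peptides to T cells, fell with T58A in the IL7 cultures. All 12 members tested were lower in T58A with IL7 and passed the test there, against 7.24% of all genes called lower. None of the 12 was called with LPS by limma, edgeR or DESeq2 (1 at an unadjusted limma p under 0.05), and the median effect there was 0.05. The difference was called negative for 10 of 12, against 3.19% of all genes, with a median over the 12 of -1.10 beside -0.02 over all genes tested. The median ratio by pair was -1.09, -1.01 and -1.03 with IL7 and 0.11, -0.12 and 0.23 with LPS.

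H2-Ab1, the beta chain of the I-A molecule (chromosome 17, 34263227 to 34269418), measured 4447, 2292 and 1255 in IL7 WT and 2117, 1118 and 612 in IL7 T58A. With LPS it measured 8657, 9498 and 8383 in WT and 8509, 8853 and 9853 in T58A. The IL7 groups overlap, since the lowest WT library lies below the highest T58A library, yet within pairs the ratios were -1.07, -1.03 and -1.04. T58A was thus 2.07-fold lower with IL7 (log2 -1.05 ± 0.08 SE, n = 3 pairs, limma adjusted p = 0.000111) and differed by 0.04 ± 0.08 (SE, adjusted p = 0.848) with LPS. The difference was -1.08 ± 0.11 (SE, 95% interval -1.32 to -0.84, limma adjusted p = 0.00242). H2-Aa, its alpha chain partner, had IL7 ratios of -1.22, -1.49 and -1.12 and LPS ratios of 0.21, -0.21 and 0.17. The invariant chain Cd74 had a difference of -1.12 ± 0.13 (SE), the peptide exchange subunit H2-DMa -1.27 ± 0.14, and Ciita, the transactivator of these genes, -0.83 ± 0.13 (limma adjusted p = 0.00376, 0.00263 and 0.0109). The other 2 members, the lysosomal protease Ctss (-0.36) and the reductase Ifi30 (-0.52), were also below 0 but not called (adjusted p = 0.121 and 0.0887).

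Of the 10 class II calls, 9 remained whichever pair was left out. With sex as a term common to both cultures, 10 class II genes had a called difference and 10 a called IL7 effect, and with a sex term in each culture 1 and 6. Since sex is laid out alike in both cultures, the common term leaves the estimates of the difference the same by construction. The 10 differences called in that fit are therefore no test of sex. The B lineage sum was lower in T58A in every IL7 pair, with log2 ratios of -0.63, -0.29 and -0.22. The IL7 ratios of the sum of 9 dendritic markers were 0.06, -0.04 and -0.30 (465 to 613 in WT, 378 to 596 in T58A), and those of the myeloid sum -0.61, 0.54 and -2.09, so neither had 1 direction in all pairs. Bst2 made up most of the dendritic sum, at 450, 448 and 410 in IL7 WT. Siglech measured 27.8, 31.7 and 7.71 in IL7 WT and 9.68, 17.6 and 0.951 in IL7 T58A. Flt3 measured 19.5, 106 and 8.81 in IL7 WT and 5.38, 6.2 and 5.71 in IL7 T58A. Both were thus lower in every IL7 pair, while Xcr1 was higher in every IL7 pair. The part of these cell types in the class II result was not tested. In bulk RNA, fewer cells of a type and less RNA per cell cannot be told apart.

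Class II promoters carry a conserved box bound by the factor NF-Y, whose core is the sequence CTGATTGG, and 2 of these promoters are shown for chains of the I-A and I-E molecules, whose differences were -1.33 (H2-Aa) and -1.23 (H2-Eb1). RefSeq promoters (GRCm38.p6, the 250 bases before the start) could be matched for 9 of the 12 genes, and CTGATTGG on either strand lay in 3 of them, H2-Aa, H2-Eb1 and H2-Oa, against 3.83% of all 32851 promoters. The list was counted by gene and the 3.83% by promoter, and a gene can have more than 1 promoter. With 75% of the list matched this share is void as a statement on the list. The motif, in capitals, is a description and not a site shown to be used in these cells.
H2-Aa (chr17:34287824-34288073, minus strand): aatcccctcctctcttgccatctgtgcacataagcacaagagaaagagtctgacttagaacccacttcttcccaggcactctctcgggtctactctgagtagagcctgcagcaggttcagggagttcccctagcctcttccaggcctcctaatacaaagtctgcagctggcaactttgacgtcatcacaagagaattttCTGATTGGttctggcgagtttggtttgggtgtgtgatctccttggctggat
H2-Eb1 (chr17:34305617-34305866, plus strand): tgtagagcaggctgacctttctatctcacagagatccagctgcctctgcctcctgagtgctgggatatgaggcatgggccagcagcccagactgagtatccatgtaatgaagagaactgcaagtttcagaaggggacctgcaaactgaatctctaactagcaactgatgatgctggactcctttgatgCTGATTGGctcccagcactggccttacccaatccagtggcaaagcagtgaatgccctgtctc

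Genes of mature and germinal centre B cells also fell with T58A in IL7 cultures. Of 22 tested, 18 were called lower in T58A with IL7, against 7.24% of all genes, and 1, Ccr7, higher with LPS, against 1%. The difference was called negative for 13, against 3.19% of all genes, and positive for none (median -0.82). S1pr1, the receptor for exit from lymphoid tissue, had a difference of -0.92 ± 0.18 (SE, limma adjusted p = 0.0188), and the Fc receptor-like Fcrl1 one of -1.42 ± 0.22 (SE, adjusted p = 0.0109). Cxcr5, the receptor for the follicle, was the member with the only positive estimate (0.03, not called). Early B cell genes gave 3 negative calls among 19 (Blnk, Il2ra and Bcl6), beside the same 3.19%, with a median of -0.28. With IL7 6 of these 19 were called lower, beside the same 7.24%, and none higher, and with LPS 2 were called higher, beside the same 1%. Of the 10 B lineage markers, 6 were called lower with IL7, so the fall was not confined to mature B cell genes. Blnk, the adaptor of the pre-B cell receptor, had a difference of -0.45 ± 0.10 (SE, limma adjusted p = 0.0274).

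NF-kB genes also split the cultures. With T58A, 11 of 19 tested were called lower with IL7, against 7.24% of all genes, and none was called in either direction with LPS by limma or edgeR (5 at an unadjusted limma p under 0.05, 1 by DESeq2). The difference was called negative for 9, against 3.19% of all genes, namely the subunits Nfkb1, Nfkb2 and Relb, the inhibitors Nfkbia and Nfkbie, the coactivator Bcl3, and the targets Traf1, Birc3 and Cd83, with a list median of -0.64. Bcl3 (chromosome 7, 19808462 to 19822824) measured 317, 141 and 118 in IL7 WT and 109.7, 67.2 and 65.6 in IL7 T58A. With LPS it measured 1034, 1374 and 955 in WT and 1321, 1673 and 1119 in T58A. T58A was below WT in all 3 IL7 pairs and above it in all 3 LPS pairs, and the difference was -1.43 ± 0.17 (SE, limma adjusted p = 0.00376). Nfkb2 showed ratios of -0.60, -0.95 and -0.45 and 0.55, 0.50 and 0.24 with IL7 and LPS (difference -1.10 ± 0.14 SE, adjusted p = 0.00535). Traf1, an adaptor of TNF receptors, had a difference of -2.48 ± 0.47 (SE, adjusted p = 0.0183), but rested on few IL7 reads, 22.3, 105 and 16.5 in WT and 9.68, 8.27 and 1.9 in T58A.

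Antiproliferative and immediate early genes also had negative differences. Of all genes tested, 3.19% had a called negative difference and 7.24% were called lower with IL7, and the counts that follow stand beside these shares. Of 17 cell cycle inhibitor and quiescence genes, 10 were called lower with IL7 and none with LPS by limma or edgeR (3 at an unadjusted limma p under 0.05, 1 by DESeq2), and the difference was called negative for 7 (Cdkn1b, Btg1, Btg2, Klf2, Tsc22d3, Pdcd4 and Slfn2; median -0.35). Btg1, an antiproliferative factor of resting lymphocytes, measured 3887, 1631 and 1491 in IL7 WT and 1802, 996 and 905 in IL7 T58A, against 2396, 2432 and 2293 and 2535, 2753 and 2328 with LPS (difference -0.94 ± 0.12 SE, limma adjusted p = 0.00515). T58A lay below WT in each IL7 pair and slightly above it in each LPS pair. Klf2, a quiescence factor, had a difference of -1.06 ± 0.17 (SE, adjusted p = 0.0109). Among 22 immediate early and heat shock genes 4 were called negative (Jun, Jund, Egr3 and Ier5), while with IL7 7 were called lower and 2 higher, with the difference at -1.73 ± 0.27 for Egr3 and -0.77 ± 0.11 for Jun (SE, adjusted p = 0.0109 and 0.00983). Interferon response genes gave 3 negative calls among 23, with Gbp3 at -0.71 ± 0.10 (SE, adjusted p = 0.00901), and 10 members were called lower with IL7. MHC class I genes gave 2 among 12, H2-T23 (-0.74 ± 0.12 SE, adjusted p = 0.0114) and H2-Q4 (-0.71). Among 25 p53 genes there were 3, Gadd45g (-1.26), Fas (-1.16) and Btg2 (-0.62).

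The calls in these lists depended on single pairs to different degrees. Leaving out 1 pair kept between 5 (without LPS pair 2) and 13 of the 13 mature B cell calls, and 4 remained in all 6 refits. For NF-kB genes 4 of 9 remained in all, with the fewest, 4, without LPS pair 2. For quiescence genes 2 of 7 remained in all, with the fewest, 2, without IL7 pair 1. With sex as a term common to both cultures, IL7 effects were called for 9 mature B cell genes in place of 18. In that fit they were called for 7 NF-kB genes in place of 11 and for 4 quiescence genes in place of 10. Immediate early and heat shock genes then had 2 in place of 9, interferon response genes 2 in place of 10 and early B cell genes 1 in place of 6. These drops cannot tell a sex effect from lost precision.

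**Figure D3:**
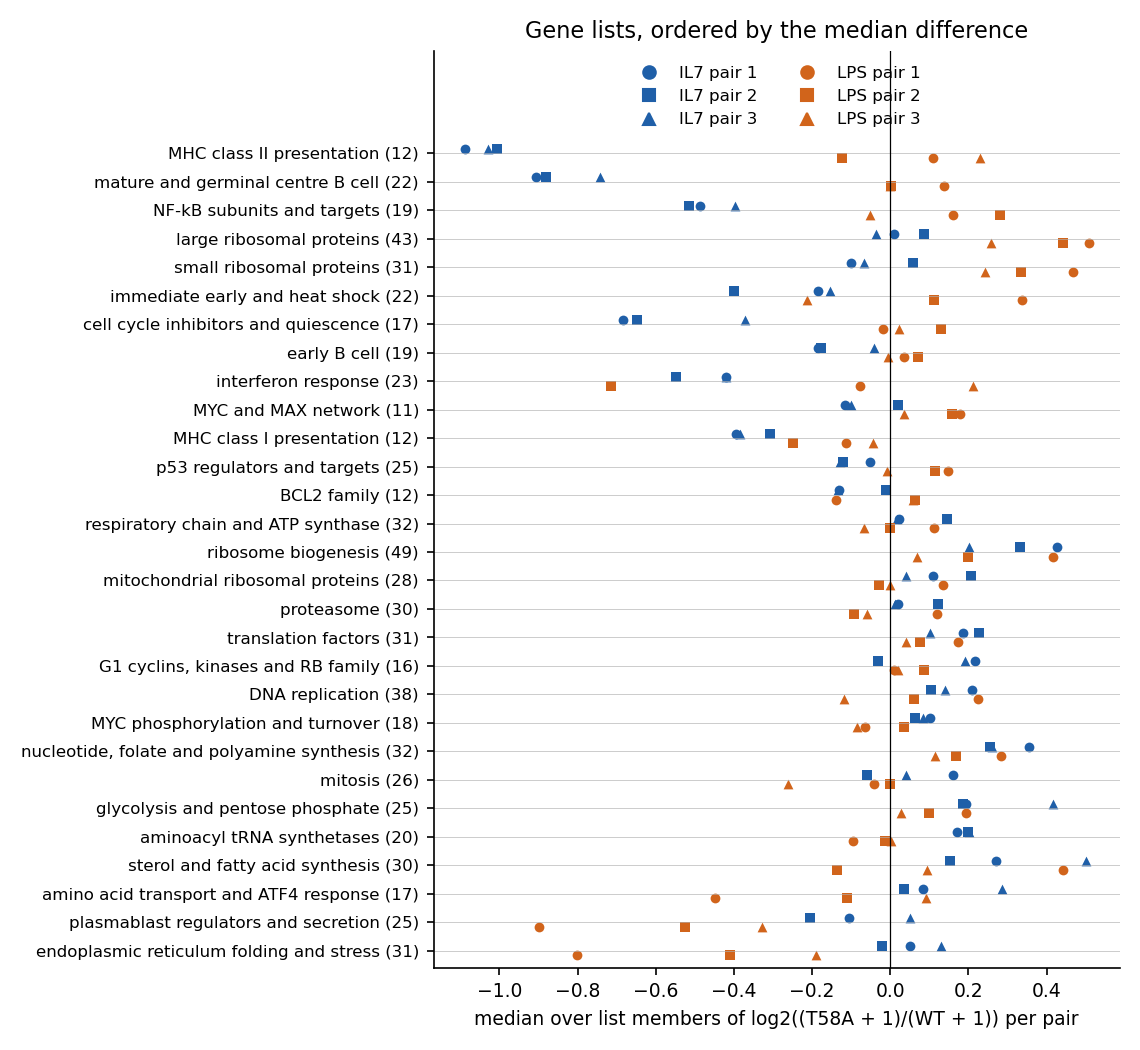
Each row is a gene list with the number of members tested in brackets, and each symbol is the median over its members of log2((T58A + 1)/(WT + 1)) in 1 pair, blue for IL7 and orange for LPS. MHC class II, mature B cell, NF-kB and quiescence genes show blue symbols well below 0 with orange near 0, endoplasmic reticulum and plasmablast genes show orange symbols below 0, and ribosome biogenesis shows all 6 symbols above 0.

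The 26 IL7-specific increases included enzymes and translation factors. Cad, the enzyme that starts pyrimidine synthesis (chromosome 5, 31054620 to 31078479), measured 2673, 3304 and 3446 in IL7 WT and 4761, 4995 and 5213 in IL7 T58A, with no overlap. With LPS it measured 878, 987 and 1249 in WT and 876, 1156 and 1343 in T58A, with ratios of -0.00, 0.23 and 0.10. The difference was 0.57 ± 0.11 (SE, limma adjusted p = 0.0196). Fasn, fatty acid synthase, rose 1.97-fold with IL7 (log2 0.98 ± 0.09 SE, limma adjusted p = 0.000175) and had a smaller estimate with LPS that was not called (0.33 ± 0.09 SE, adjusted p = 0.0691); the difference was 0.65 ± 0.12 (SE, adjusted p = 0.0178). Pkm, the last enzyme of glycolysis, had a difference of 0.53 ± 0.12, the tRNA synthetase Eprs 0.45 ± 0.10 and the initiation scaffold Eif4g1 0.44 ± 0.10 (SE, limma adjusted p = 0.0429, 0.0386 and 0.0356). Tpi1 (0.66) and Eif3c (0.45) were also called.

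Few other members of the lists these genes belong to had a called difference. A positive difference was called for 1 of 32 nucleotide, folate and polyamine genes, 2 of 25 in glycolysis and the pentose phosphate pathway, 1 of 30 in sterol and fatty acid synthesis, 1 of 20 tRNA synthetases and 2 of 31 translation factors, against 0.901% of all genes. Among the translation factors 1 negative difference was called too, that of the initiation factor subunit Eif3f (-0.43 ± 0.10 SE, limma adjusted p = 0.0468). At an unadjusted limma p under 0.05, in either direction, these 5 lists had 7, 10, 8, 9 and 8 genes, against 19.0% of all genes. Their median differences were 0.15, 0.16, 0.20, 0.19 and 0.07, beside -0.02 over all genes. The same 5 lists had 13, 9, 12, 4 and 6 genes called higher with IL7, against 4.72% of all genes. With sex as a term common to both cultures, they had 1, 2, 3, 0 and 0 genes with a called IL7 effect. Among the 12 largest positive differences, 5 were IL7-specific increases outside these lists: Mgll, monoacylglycerol lipase (difference 1.46 ± 0.30 SE, limma adjusted p = 0.0254), the Rab regulator Tbc1d16 (1.32), the ubiquitin ligase March8 (1.27), which is known to remove class II molecules from the cell surface, the actin nucleator Spire1 (1.16) and Pdpr (0.87), a regulator of pyruvate dehydrogenase phosphatase. March8 measured 74.3, 67.9 and 52.9 in IL7 WT and 115, 102 and 112 in IL7 T58A, without overlap, and 86.5, 64 and 74.7 in LPS WT and 40.8, 44.4 and 78.2 in LPS T58A, with overlap. Its difference was 1.27 ± 0.31 (SE, adjusted p = 0.0472).

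**Figure D4:**
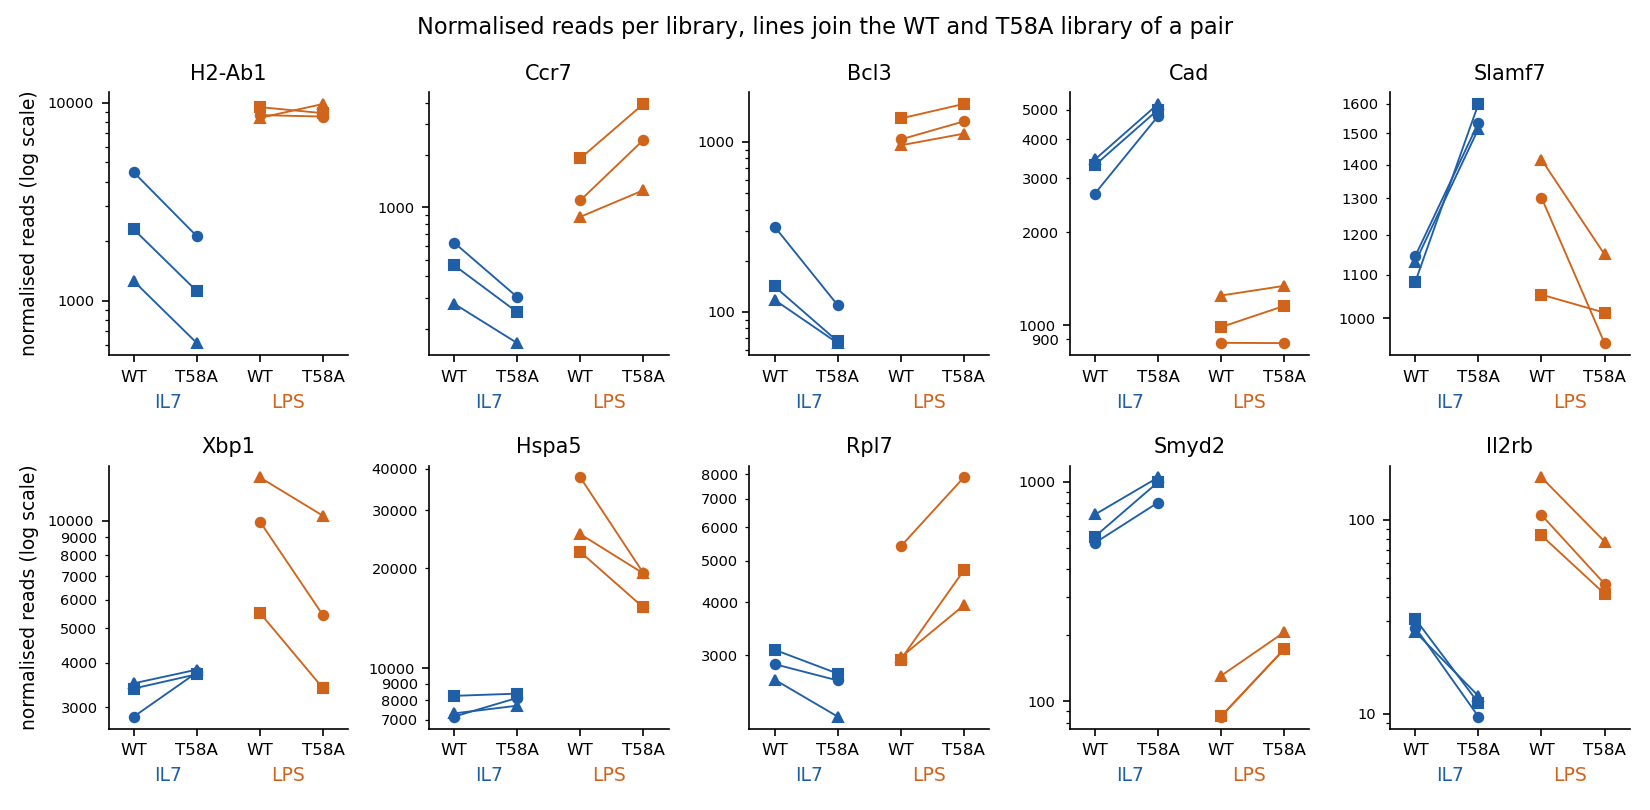
Normalised reads of 10 genes in each of the 12 libraries on log axes, with lines joining WT and T58A of a pair and the marker shape giving the pair (circle 1, square 2, triangle 3). H2-Ab1 falls in IL7 pairs and is nearly level in LPS pairs, Ccr7 and Bcl3 are lower in T58A in the IL7 pairs and higher in the LPS pairs, Xbp1 and Hspa5 fall with LPS, and Smyd2 and Il2rb move the same way in all 6 pairs.

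Endoplasmic reticulum folding and stress genes fell with T58A in LPS cultures. Of 31 tested, 16 were called lower with LPS, against 0.975% of all genes, and none was called in either direction with IL7 by limma or edgeR (7 at an unadjusted limma p under 0.05, 1 by DESeq2). With sex as a term common to both cultures none of the 16 LPS calls was left. That fit also loses precision, since the averaged effect then rests on pair 3 alone. All 31 had a positive estimate of the difference, which was called for 13 (median 0.53), against 0.901% of all genes called positive. The median ratio by pair was -0.80, -0.41 and -0.19 with LPS and 0.05, -0.02 and 0.13 with IL7, so the LPS pairs differed in size. Of the 13 calls 3, Hspa5, Hsp90b1 and Sdf2l1, are also on the plasmablast list.

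Hspa5, the main chaperone of the endoplasmic reticulum (chromosome 2, 34772090 to 34776529), measured 37621, 22439 and 25381 in LPS WT and 19367, 15255 and 19324 in LPS T58A, without overlap. With IL7 it measured 7153, 8261 and 7315 in WT and 8145, 8389.9 and 7716 in T58A, with overlap. T58A was 1.55-fold lower with LPS (log2 -0.64 ± 0.10 SE, n = 3 pairs, limma adjusted p = 0.0217), and the difference was 0.73 ± 0.15 (SE, 95% interval 0.41 to 1.05, limma adjusted p = 0.0231). Rpn1, a subunit of the enzyme that attaches sugars to new proteins, had LPS ratios of -0.76, -0.49 and -0.24 and IL7 ratios of 0.21, 0.22 and 0.25 (difference 0.73 ± 0.13 SE, adjusted p = 0.015). Hyou1, a chaperone, had a difference of 0.81 ± 0.17 and the calcium-binding chaperone Calr one of 0.62 ± 0.15 (SE, adjusted p = 0.0297 and 0.045). Hsp90b1 (0.58), Manf (0.66), Sdf2l1 (0.71), Sec61b (0.59), Pdia3 (0.54) and Ssr3 (0.47) were the 6 LPS-specific genes of the list.

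Xbp1, the transcription factor that expands the secretory pathway in plasma cells (chromosome 11, 5520641 to 5525993), was an opposite gene. It measured 9955, 5514 and 13245 in LPS WT and 5432, 3388 and 10336 in LPS T58A, against 2819.7, 3381 and 3497 and 3751, 3708 and 3821 with IL7. The LPS groups overlap unless read by pair, with ratios of -0.87, -0.70 and -0.36, and the difference was 0.87 ± 0.14 (SE, limma adjusted p = 0.0116). On the plasmablast list 13 of 25 were called lower with LPS, against 0.975% of all genes, and with IL7 2 were called lower and 2 higher. None of the 13 LPS calls was left with sex as a term common to both cultures, with the same loss of precision. The difference was called positive for 6 (Xbp1, Sdc1, Slamf7, Hspa5, Hsp90b1 and Sdf2l1; median 0.37), against 0.901% of all genes. Slamf7, a surface receptor of plasma cells, measured 1146, 1083 and 1131 in IL7 WT and 1534, 1599 and 1514 in IL7 T58A, without overlap, and had LPS ratios of -0.46, -0.06 and -0.30. It is, with Pdzd2, the other gene whose positive difference (0.74 ± 0.12 SE, adjusted p = 0.0116) stayed called without any 1 pair. Prdm1, the master regulator of plasma cells, had LPS ratios of -0.90, -0.58 and -0.33 that were not called (limma adjusted p = 0.599). Its IL7 values were low and scattered at 31.6, 102 and 25.3 in WT and 20.4, 5.17 and 25.7 in T58A. The fit takes the spread from both cultures, so that p does not measure the spread of the LPS pairs alone.

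None of the 13 endoplasmic reticulum calls survived every left-out pair: 12 remained without LPS pair 3, 4 without LPS pair 1, and none without IL7 pair 1 or LPS pair 2. The plasma cell regulators Xbp1, Prdm1 and Irf4 were below WT in all 3 LPS pairs too (Irf4 ratios -0.76, -0.44 and -0.32, not called), and their part in the result was not tested. The remaining LPS-specific decreases included Ada, adenosine deaminase (difference 0.96 ± 0.18 SE, limma adjusted p = 0.0192), the linker histone H1f0 (0.88 ± 0.15 SE, adjusted p = 0.0149) and the mitotic kinase Aurka (0.48 ± 0.11 SE, adjusted p = 0.0396). No LPS-specific gene remained called in all 6 refits.

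Promoters of this group are shown because a stress element was frequent in them. The endoplasmic reticulum stress element is CCAAT, any 9 bases and CCACG, known as the site where ATF6 acts with NF-Y. On either strand of the 250 bases before the start it lay in 37 of 32851 RefSeq promoters (0.113%, GRCm38.p6) and in 8 of the 25 list members with a matched promoter, out of 31 tested: Calr, Canx, Creld2, Dnajc3, Hsp90b1, Hspa5, Pdia6 and Syvn1. The share over all is by promoter and the list count by gene, and a gene can have more than 1 promoter. The element was searched after the values were known, and only 3 of these 8 (Calr, Hsp90b1 and Hspa5) had a called difference, among 10 called members with a promoter. The other 5 had differences of 0.37 (Canx), 0.72 (Creld2), 0.51 (Dnajc3), 0.56 (Pdia6) and 0.17 (Syvn1), none of them called. Capitals mark the element, read on the opposite strand, and so starting with CGTGG, in Calr and at the second site of Hsp90b1; a match is a description, not a site shown to be bound.
Hspa5 (chr2:34771840-34772089, plus strand): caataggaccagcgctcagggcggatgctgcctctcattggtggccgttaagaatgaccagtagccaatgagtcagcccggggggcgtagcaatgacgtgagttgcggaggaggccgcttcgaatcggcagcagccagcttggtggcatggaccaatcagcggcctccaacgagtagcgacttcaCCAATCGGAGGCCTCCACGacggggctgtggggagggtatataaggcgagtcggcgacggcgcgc
Hsp90b1 (chr10:86705445-86705694, minus strand): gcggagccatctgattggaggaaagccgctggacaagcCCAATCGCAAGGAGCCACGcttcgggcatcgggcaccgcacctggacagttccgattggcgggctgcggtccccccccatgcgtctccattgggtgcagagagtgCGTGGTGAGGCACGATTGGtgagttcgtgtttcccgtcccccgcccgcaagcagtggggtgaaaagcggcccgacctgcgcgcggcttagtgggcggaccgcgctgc
Calr (chr8:84846932-84847181, minus strand): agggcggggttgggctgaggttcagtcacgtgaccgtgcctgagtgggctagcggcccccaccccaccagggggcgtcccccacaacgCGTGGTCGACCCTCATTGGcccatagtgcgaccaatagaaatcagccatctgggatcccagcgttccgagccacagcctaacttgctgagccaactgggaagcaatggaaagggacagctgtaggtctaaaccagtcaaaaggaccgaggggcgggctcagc

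Some ribosomal protein genes rose with T58A in LPS cultures. Of 43 large subunit genes, 6 were called higher with LPS and 1 lower with IL7, and of 31 small subunit genes 4 were called higher with LPS, 1 higher with IL7 and 2 lower with IL7. Of all genes 1% were called higher with LPS and 7.24% lower with IL7. With sex as a term common to both cultures, LPS effects were called for 1 large subunit gene and for no small subunit gene. The median effect with LPS was 0.43 and 0.34 for the large and small subunit, against 0.03 and -0.05 with IL7. The difference was called negative for 6 large subunit genes (Rpl6, Rpl7, Rpl12, Rpl22, Rpl32 and Rplp2; median -0.52) and 4 small subunit genes (among them Rps16, Rps25 and Rps26; median -0.37), against 3.19% of all genes, so that most members did not pass the test. Many ribosomal protein genes have near-identical processed copies elsewhere in the genome, so the share of their reads that was assigned is uncertain.

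Rpl7 (chromosome 1, 16101295 to 16104433) measured 5412, 2929 and 2964 in LPS WT and 7867, 4749.5 and 3929.8 in LPS T58A, against 2857, 3089 and 2627 and 2615, 2715 and 2149.6 with IL7. T58A was above WT in each LPS pair and below it in each IL7 pair, with ratios of 0.54, 0.70 and 0.41 and -0.13, -0.19 and -0.29. The difference was -0.75 ± 0.11 (SE, limma adjusted p = 0.00781), and it remained called in all 6 refits. Rpl6 was called in both cultures, at -0.34 with IL7 and 0.41 with LPS (difference -0.75 ± 0.12 SE, adjusted p = 0.0116). Rps16 varied more between pairs, with IL7 ratios of -0.42, -1.64 and -1.93 and LPS ratios of 0.82, 0.06 and 1.81 (difference -2.23 ± 0.43 SE, adjusted p = 0.0202). Of the large subunit calls 1 remained in all refits, and of the small subunit calls 1.

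Shared effects were led by a few regulators and enzymes. Smyd2, a lysine methyltransferase (chromosome 1, 189880492 to 189922495), measured 527, 563 and 710.2 in IL7 WT and 805, 997 and 1047 in IL7 T58A, and 85.2, 85.6 and 131 in LPS WT and 173, 173 and 206 in LPS T58A. The groups did not overlap in either culture. T58A was 1.58-fold higher with IL7 and 1.85-fold higher with LPS (log2 0.66 ± 0.11 and 0.89 ± 0.11 SE, limma adjusted p = 0.00376 and 0.0159), and the 95% interval of the difference, -0.56 to 0.11, includes 0. Sox12, a transcription factor of the SoxC group, had ratios of 0.99, 0.78 and 0.34 with IL7 and 1.00, 1.10 and 0.70 with LPS (interval of the difference -0.70 to 0.24). Dctd, a deaminase of pyrimidine synthesis, and Nme4, a nucleoside diphosphate kinase, rose in both cultures, with differences of -0.12 ± 0.18 and -0.24 ± 0.25 (SE). The polarity protein Pard3b, the zinc finger gene Zfp827 and pyridoxal kinase Pdxk were also among the 8 largest shared increases, with mean effects over the cultures of 0.88, 0.83 and 0.58.

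The largest shared decrease was that of Il2rb, the receptor chain for interleukins 2 and 15. It measured 27.8, 30.8 and 26.4 in IL7 WT and 9.68, 11.4 and 12.4 in IL7 T58A, and 106, 83 and 165 in LPS WT and 46.8, 41.6 and 77.2 in LPS T58A, with no overlap in either culture. It fell in both, with log2 ratios of -1.43, -1.36 and -1.04 and -1.16, -0.98 and -1.09, and the interval of the difference was -0.86 to 0.45. Il2rb is also on the list of T and NK markers, whose sum was 964 to 1573 in IL7 WT and 1282 to 1650 in IL7 T58A. With LPS that sum was 517 to 779 in WT and 368 to 748 in T58A. Thy1 and Lck made up most of the IL7 sum, and Thy1 was higher in T58A in every IL7 pair. Cd3g, Nkg7 and Ncr1, all with few reads, were lower in every IL7 pair. With LPS Cd3g measured 49.5, 10.4 and 21.6 in WT and 24, 0.717 and 7.82 in T58A. Cd3e, Cd3d, Cd4, Cd8b1 and Nkg7, all with few reads, were also lower in T58A in every LPS pair. Lck was higher in LPS pairs 1 and 2 and Thy1 in LPS pair 2, while Cd8a, Ncr1 and Klrb1c had no reads in at least 1 LPS pair. The part of T and NK cells in the Il2rb result was not tested. Sepp1, the selenium carrier, had effects of -0.88 ± 0.09 with IL7 and -0.77 ± 0.09 with LPS (SE, limma adjusted p = 0.000493 and 0.0159). The exchange factor Trio, the lipid transfer protein Pltp, the galectin Lgals1, Pqlc3, the p53 target Trp53inp1 and Itm2b fell in both, with mean effects of -0.86, -0.71, -0.67, -0.59, -0.55 and -0.45.

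Ribosome biogenesis genes, classical MYC targets, had mean effects above 0 in both cultures, for 48 of 49 with IL7 and 49 of 49 with LPS. Of the 49 tested, 18 were called higher with IL7, against 4.72% of all genes, and 2 (Polr1b and Mybbp1a) with LPS, against 1%, none was called lower, and 23 were higher in all 6 pairs, against 888 of all 10767 genes (8.25%). No difference was called in this list by limma, edgeR or DESeq2 (7 at an unadjusted limma p under 0.05; median 0.06), where IL7 and LPS medians were 0.30 and 0.22. Polr1b, a subunit of RNA polymerase I (chromosome 2, 129100970 to 129128060), measured 869, 1168 and 1159 in IL7 WT and 1556, 1754 and 1581 in IL7 T58A, and 254, 284 and 303 in LPS WT and 326, 371 and 419 in LPS T58A. The groups did not overlap in either culture and the interval of the difference was -0.05 to 0.49. Rrp12 had the smallest p of the list for a difference and was not called (0.42 ± 0.11 SE, adjusted p = 0.0625). Nucleotide synthesis genes had 14 of 32 higher in all 6 pairs and 2 shared genes, Pfas and Dctd. The E-box CACGTG, to which MYC with MAX binds, lay in a promoter of 2 of 44 matched ribosome biogenesis genes and 6 of 28 matched nucleotide synthesis genes. Counted by gene in the same way, it lay in 10.4% of the 8686 tested genes with a promoter, beside 6.02% of all promoters. For the gene classes themselves that share is void, since only 75.6% of the genes with a negative and 74.2% of those with a positive difference had a promoter in the table.

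Myc itself (chromosome 15, 61985341 to 61990361) measured 2010.3, 3204 and 3858 in IL7 WT and 3038, 4396 and 4827 in IL7 T58A, and 749, 1095 and 731 in LPS WT and 961, 1418 and 693 in LPS T58A. It was higher in T58A in 5 of 6 pairs. Its effect was called with IL7 (0.46 ± 0.10 SE, limma adjusted p = 0.0129) and not with LPS (0.22 ± 0.10 SE, adjusted p = 0.24), and the difference was not called (0.24 ± 0.14 SE, 95% interval -0.06 to 0.54, adjusted p = 0.374), which does not show equal effects. The mutation changes 1 codon, so the level of Myc reads does not check the genotype labels. DNA replication (38 tested), proteasome (30), respiratory chain (32), BCL2 family (12) and MAX network genes (11) had no called difference in limma or edgeR, with medians of 0.12, 0.07, 0.04, -0.09 and -0.20. At an unadjusted limma p under 0.05 they had 6, 4, 0, 4 and 2 genes, and DESeq2 called 1, in the BCL2 family.

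Sex was tried as a term in the fit. With sex as 1 further term, the estimates of the difference stay the same by construction and 424 of the 441 calls remained, but an effect averaged over the cultures was then called for 3 genes in place of 1406 (13.1% of the genes tested), and 2 genes met the definition of shared, neither of them among the 39. In that fit 1 of the 18 ribosome biogenesis genes called with IL7 was left. The averaged effect rests there on pair 3 alone, so these drops cannot tell a sex effect from lost precision. With sex as a term in each culture, which leaves the genotype effect to pair 3, the difference was called for 10 genes and 5 of the 441 remained. In pair 3, where both libraries were male in each culture, all 441 genes with a called difference had the direction of the whole fit. The share over all genes was 76.8%. Pair 3 is part of that fit, and the 225 opposite genes had to have this direction by definition, so the share is no test of sex. The median pair 3 difference was -0.71 for genes called negative and 0.48 for genes called positive, beside -0.79 and 0.59 in the whole fit.

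The count of 441 rests on the pairing. Without the pair block limma called no difference (479 genes at an unadjusted p under 0.05, against 2045 with the block), and with the same-headed LPS columns exchanged it also called none (866 at an unadjusted p under 0.05). The estimates of the difference are the same in both fits by construction, so only the errors changed. With the block, edgeR called 484 genes and DESeq2 506. Leaving out 1 pair gave 110 calls without IL7 pair 1, 241 without IL7 pair 2, 297 without IL7 pair 3, 173 without LPS pair 1, 119 without LPS pair 2 and 378 without LPS pair 3. Of the 441 genes, 65 stayed called in all 6 refits, 63 of them negative. Opposite genes kept 38 of 225 in all 6 and IL7-specific genes 27 of 182. None of the 39 shared genes stayed called in both cultures throughout, and without LPS pair 1 or LPS pair 2 no gene was called in both cultures.

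**Figure D5:**
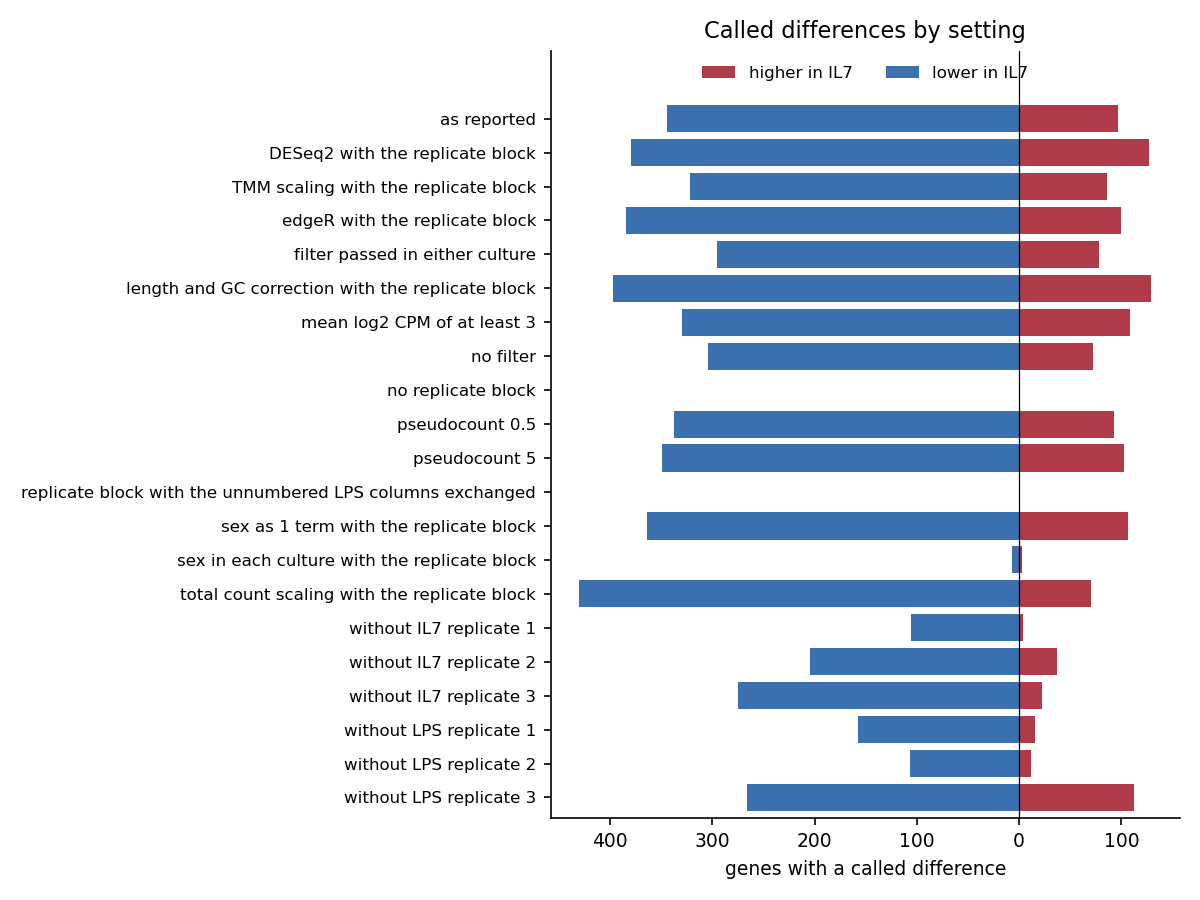
Bars give the number of genes with a called difference under each setting, to the left for genes lower in IL7 and to the right for genes higher in IL7; replicate is the pair number. The 441 calls reported stand at the top, negative calls outnumber positive ones wherever there are calls, and there are none without the replicate block or with the same-headed LPS columns exchanged.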

How the data were processed

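RNA was sequenced from 12 B cell cultures. Per the submitters' processing notes, reads were handled with bcl2fastq 1.8.4, TopHat2 2.1.0, HTSeq 0.6.1 and DESeq2 on genome build mm10. The deposited values are reads per gene divided by a size factor per library, a normalised signal from which whole reads were recovered for 100% of values (within 0.001). The authors' deposited tables also hold log2 fold changes and p-values, used only to check the pairing: DESeq2 with a pair block recomputed the authors' p-values within 1% for 94.0% of genes with IL7 and 98.9% with LPS, against 17.0% with the same-headed LPS columns exchanged. Depth is given as assigned reads above, and it limits the precision of low genes.

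Because the deposited values are normalised, log2(value + 1) was tested with limma 3.58.1 (R 4.3.3), with group, the pair within culture as a block, 4 residual degrees of freedom and Benjamini-Hochberg adjustment over 10767 genes that passed edgeR's filterByExpr (minimum count 10, minimum total 15) in both cultures; 837 genes passed with IL7 alone and 482 with LPS alone. Both cultures entered the same fit, so the IL7 and LPS effects of a gene share the same estimate of spread. Fold changes on this scale understate the change of low genes. Same-numbered libraries were treated as pairs because the titles give the numbers, except for the same-headed LPS columns. Their deviations from the group mean correlated (r = 0.45, 0.19 and 0.44 with IL7, 0.36, 0.66 and 0.53 with LPS, against -0.48 to -0.04 for other combinations). Such deviations cancel within a group, so the negative values follow in part from the positive ones. The script was tested on simulated data for this difference (10767 genes): limma recovered 71% of 2-fold changes and 29% of 1.5-fold changes, with 9 false calls among 109.

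Named genes were the 12 largest called differences in each direction without overlap between the pair ratios, the 8 largest shared and the 8 largest opposite genes in each direction, the member of each list with the smallest p in each direction, and Myc. Some genes that this rule names are not reported here. Other genes were named after their values were seen. The members and lists were chosen with earlier results of these data known, and so was the culture comparison. The motif CACGTG was planned; the endoplasmic reticulum stress element and CTGATTGG were chosen after seeing the data. Gene positions are from RefSeq (GRCm38), matched by symbol, and promoters from RefSeq GRCm38.p6. Transcript length and GC content are from GENCODE M21, matched by symbol for 94.6% of genes. The alternatives were other scalings, pseudocounts, filters, edgeR 4.0.16, DESeq2 1.42.0, sex terms, a length and GC correction, the fit without the block, exchanged columns and leaving out each pair. Tables and figures were made with Python 3.11.15, pandas 2.3.3 and matplotlib 3.10.9.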

Additional observations from a re-analysis of the deposited data

Results flagged for a closer look

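The difference of the T58A effect between the cultures was tested directly as an interaction in limma, and genes named by rule that passed (adjusted p under 0.05) are given with their difference, IL7 minus LPS, on the log2 scale. Their names follow from that test, so their number says nothing further. Positive values were Mgll 1.46, Tbc1d16 1.32, Epcam 1.31, March8 1.27, Coro2b 1.27, Pdzd2 1.18, Znrf3 1.17, Spire1 1.16, Ada 0.96, H1f0 0.88, Pdpr 0.87, Xbp1 0.87, Hyou1 0.81, Ube4a 0.79, Smim13 0.75, Slamf7 0.74, Rpn1 0.73, Fasn 0.65, Cad 0.57, Pkm 0.53, Mrpl16 0.51, Aurka 0.48, Eprs 0.45 and Eif4g1 0.44. Negative values were Traf1 -2.48, Rps16 -2.23, Pvrl1 -2.23, Cd83 -2.06, Cd5 -2.06, Steap4 -2.04, Gdpd3 -1.90, Dnase1l3 -1.90, Gimap3 -1.87, Ccr7 -1.79, Egr3 -1.73, Faim3 -1.70, Bcl3 -1.43, Gadd45g -1.26, H2-Ab1 -1.08, Btg1 -0.94, Jun -0.77, Rpl7 -0.75, H2-T23 -0.74, Spib -0.73, Gbp3 -0.71, Blnk -0.45 and Eif3f -0.43.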

How the results depend on the processing

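Dropping the replicate block gave 0 calls for the difference, the IL7, LPS and average effects, and shared, opposite and culture-specific genes in limma, where 479, 1111, 521 and 1167 genes had an unadjusted p under 0.05 for the first 4. Exchanging the same-headed LPS columns gave 76 calls with IL7 and 0 for the difference, LPS effect, average effect, shared, opposite and culture-specific genes (866, 743 and 1565 at an unadjusted p under 0.05 for the difference, LPS and average effects). Sex as 1 term gave 144 calls with IL7, 4 with LPS, 3 on average, 2 shared and 87 culture-specific genes. Sex in each culture gave 10 differences, 45 IL7, 4 LPS and 8 average calls, 1 shared, 5 opposite and 5 culture-specific genes. DESeq2 gave 332 LPS calls and 63 shared genes, and a mean log2 CPM of at least 3 gave 66 shared genes. Leaving out 1 pair gave 110 to 378 differences, 303 to 1505 IL7, 0 to 396 LPS and 474 to 1554 average calls, 0 to 82 shared, 57 to 239 opposite and 26 to 148 culture-specific genes; LPS calls were 0 without LPS pair 2, with 1564 genes at an unadjusted p under 0.05. Of the values for named genes under these settings, 1657 kept their side of the threshold, 312 lost the call, 18 gained it and none changed sign with a call; of list medians, 604 moved by less than the spread between pairs and 12 by more. Dropping the block or exchanging the LPS columns left the estimates the same by construction, so only the errors changed. Both cultures share the estimate of spread of a gene, so exchanging LPS columns also changed the IL7 calls. The cause of the other changes was not tested, beyond the fewer pairs in the fits that leave one out.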
